A study of Mus musculus with 10 samples.

Results

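Complement is a set of blood and tissue proteins that mark particles, immune complexes and dying cells for removal. C1qa, C1qb, C1qc, C3, C4b, Cfb, C3ar1, C5ar1 and Serping1 were chosen by name as components, receptors and an inhibitor of this system, and all 9 are among the 15075 genes measured in interscapular brown fat (iBAT). C1q recognizes the target and, through the proteases C1r and C1s, cleaves C4 and C2 into the classical C3 convertase. Factor B (Cfb), cut by factor D (Cfd, also called adipsin), forms the alternative convertase, and both convertases act on C3. The small fragments released from C3 and C5 act on myeloid cells through the receptors C3ar1 and C5ar1, while Serping1 encodes the C1 inhibitor, which blocks C1r and C1s. In adipose tissue the C1q chains and both receptors are known as macrophage genes, whereas adipocytes are a source of C3 and adipsin.

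RNA was sequenced from the iBAT of 5 Control and 5 AdCKO mice, 1 library per mouse, on a C57BL/6 background at 20 weeks of age and room temperature. AdCKO mice carried floxed Crls1, the gene of cardiolipin synthase, together with Cre under the adiponectin promoter, so the deletion is aimed at adipocytes and other cells of the tissue keep the gene. Control mice were homozygous for the floxed allele without Cre, although the labels call them wild type. Each value is the number of exon reads, normalized with DESeq2 and divided by the counted exon length in kb, so levels can be set side by side between genes.

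AdCKO was compared with Control by limma on log2(value + 1), which understates the fold change of low genes. The fit covered the 11244 genes whose mean reached 10 in either group, and calls were made where the adjusted p was below 0.01. Crls1 itself lay between 813 and 1291 in Control and between 193 and 249 in AdCKO. The summed normalized reads ran from 7615403 to 8171138 per Control library and from 5419800 to 5843024 per AdCKO library. Depth before normalization is unknown. Some libraries stood apart. Control replicate 3 had the highest level of its group for 9 of the 9 complement genes and for the summed macrophage markers (1264, against at most 794 in the other Control libraries). AdCKO replicate 5 was the lowest of its group for 9 of 9. The summed level of 5 skeletal muscle genes was 4841, 18690 and 7131 in AdCKO replicates 1, 2 and 4, against 112 to 126 in the other AdCKO libraries. The summed lymphocyte markers reached 160 in AdCKO replicate 1 and at most 42.2 elsewhere.

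The 9 genes sit in a few loci (mm9, all on the minus strand). C1qb (NM_009777, chr4:136436061-136442092), C1qc (NM_007574, chr4:136445717-136448829) and C1qa (NM_007572, chr4:136451831-136454759) are neighbours within 18699 bases, each with 3 exons. C4b (NM_009780, chr17:34865326-34880842) and Cfb (NM_001142706, chr17:34993319-34999459) lie in one stretch of chromosome 17 with their relatives C4a and C2. Cfb and C2 are 87 bases apart, and another annotated gene model, Gm20547, overlaps it on the same strand, so its reads are not certain to be its own. C4a is a near-identical copy of C4b, and reads shared by both are likewise uncertain. C3 (NM_009778, chr17:57343396-57367559) has 41 exons and lies elsewhere on the same chromosome. C3ar1 (NM_009779) is at chr6:122797158-122806175, C5ar1 (NM_007577) at chr7:16832092-16844889 and Serping1 (NM_009776) at chr2:84605517-84615586.

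Promoter windows of 300 bases (250 before to 50 after the start) were given in the RefSeq table for 5 of the 9 genes, on GRCm38.p6. There was no entry for C1qa, C4b, Cfb or Serping1. The windows of C1qb (chr4:136886151-136886450), C1qc (chr4:136892865-136893164), C5ar1 (chr7:16259289-16259588) and C3 (chr17:57228087-57228386), all minus strand, are printed. These are the windows that held a motif match. The first 3 belong to genes that rose in AdCKO and the last to the one that fell. The window of C3ar1, which also rose, held no match and is not printed. Capitals mark matches, on either strand, to GAGGAA (the core letters of PU.1 sites), AGGAAGT (letters of ETS family sites, to which PU.1 also belongs) or TTGCNNAA (C/EBP).
C1qb: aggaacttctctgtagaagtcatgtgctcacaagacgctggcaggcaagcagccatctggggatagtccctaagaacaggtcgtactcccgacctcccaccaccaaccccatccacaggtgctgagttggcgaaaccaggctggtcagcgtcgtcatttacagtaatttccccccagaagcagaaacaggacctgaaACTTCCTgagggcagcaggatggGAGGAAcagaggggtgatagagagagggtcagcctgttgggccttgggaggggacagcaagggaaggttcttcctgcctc
C1qc: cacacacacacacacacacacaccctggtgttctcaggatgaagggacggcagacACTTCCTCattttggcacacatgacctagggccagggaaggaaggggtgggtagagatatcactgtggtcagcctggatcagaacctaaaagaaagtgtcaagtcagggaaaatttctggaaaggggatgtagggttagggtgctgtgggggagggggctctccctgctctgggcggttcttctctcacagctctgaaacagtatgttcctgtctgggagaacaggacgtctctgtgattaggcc
C5ar1: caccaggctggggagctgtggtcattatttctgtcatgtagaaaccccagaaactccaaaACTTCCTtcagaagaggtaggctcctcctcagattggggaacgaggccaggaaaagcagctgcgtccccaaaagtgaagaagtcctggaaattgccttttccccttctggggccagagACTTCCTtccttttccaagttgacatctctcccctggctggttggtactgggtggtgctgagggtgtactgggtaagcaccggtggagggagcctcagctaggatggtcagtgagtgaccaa
C3: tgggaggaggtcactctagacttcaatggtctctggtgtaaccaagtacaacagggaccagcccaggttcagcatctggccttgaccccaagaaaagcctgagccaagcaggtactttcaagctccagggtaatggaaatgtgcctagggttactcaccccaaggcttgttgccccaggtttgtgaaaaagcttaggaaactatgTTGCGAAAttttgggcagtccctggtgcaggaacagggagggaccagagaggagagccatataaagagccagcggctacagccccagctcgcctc
AGGAAGT was present in the windows of C1qb, C1qc and C5ar1, and 9.35% of all 32851 promoter windows hold it. GAGGAA was present in those of C1qb and C1qc (28.3% of all windows), and in C1qc both matches overlap. TTGCNNAA was found in the C3 window only, as TTGCGAAA, against 10.8% of all windows. TGATGNAA, the letters of ATF4-C/EBP sites, was in none of the 5 windows and is in 3.97% of all, and the C3ar1 window held none of the 4 motifs. These matches describe letters and not binding.

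Of the 9 complement genes, 8 were called higher in AdCKO iBAT and 1, C3, was called lower. Over all genes tested, 25.6% were called higher and 28% lower (53.6% in all), so calls in both directions were frequent. The groups did not overlap for 8 of the 9, against 50.9% of all tested genes. Each of the 9 reached a mean of 10 in both groups, although C3ar1 passed in Control with 10.1. The median log2 fold change of the 9 was 2.60, and that of all tested genes was -0.01. The plot of values by library shows each mouse.

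**Figure D1:**
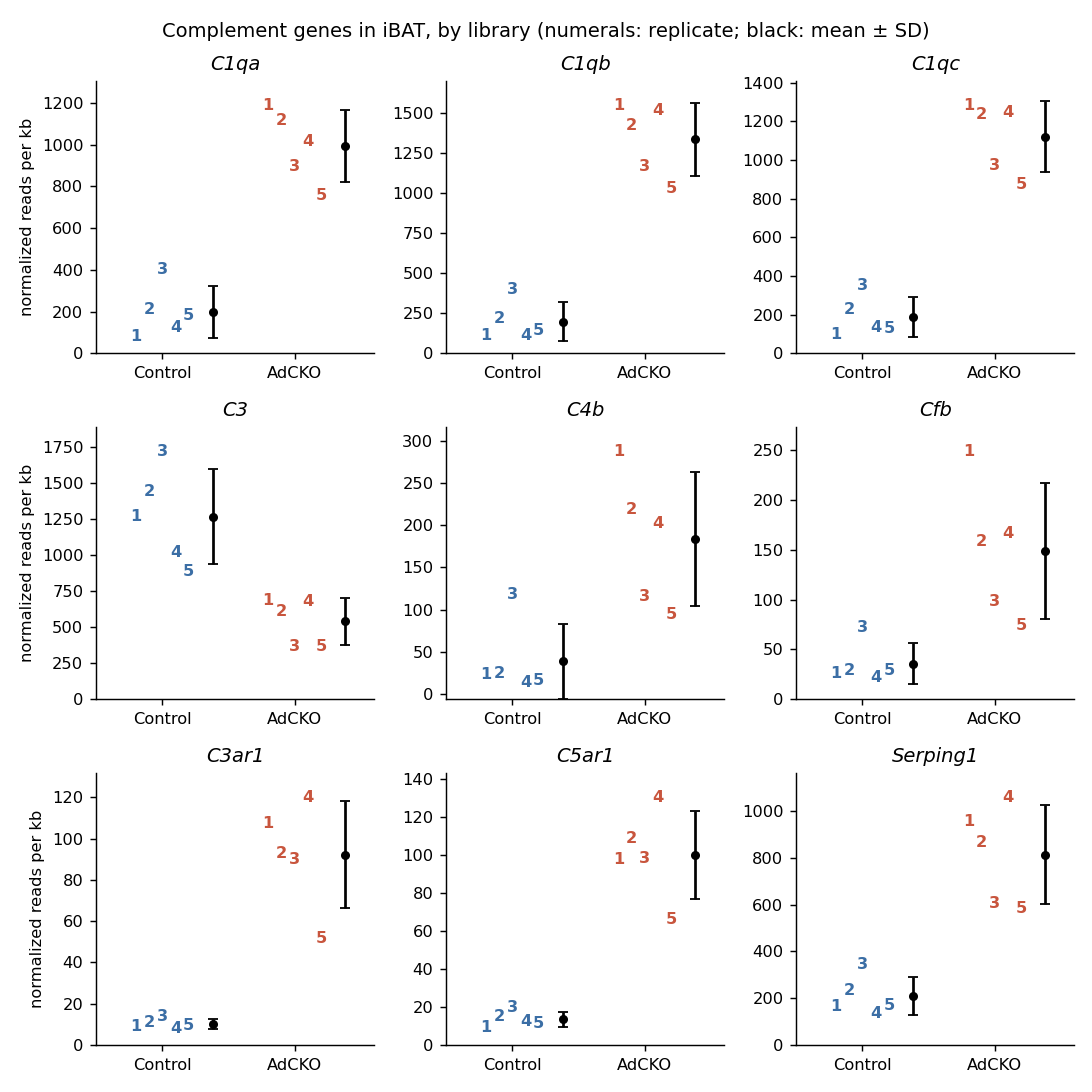
Normalized reads per kb (linear axes) of the 9 complement genes in each library. Numerals are replicate numbers, and black points with bars are the mean ± SD of 5 mice. C3 is the one gene with AdCKO below Control, and C4b the one whose groups overlap.

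The recognition molecule C1q is built from the products of C1qa, C1qb and C1qc, which rose together. C1qa was at 81.3, 209, 401.5, 123 and 180.3 normalized reads per kb in Control replicates 1 to 5 and at 1187, 1118, 897, 1016 and 757 in AdCKO. C1qb was at 110.7, 218, 398, 114 and 144 in Control and at 1544, 1421, 1163, 1515 and 1026 in AdCKO. C1qc was at 99.3, 227, 349, 132 and 129.7 in Control and at 1280.2, 1233, 972, 1246 and 873 in AdCKO. For each chain the lowest AdCKO library lay well above Control replicate 3, the highest Control library. The means rose from 199 ± 123 to 995 ± 172 for C1qa (SD, n = 5 each), or 2.50 ± 0.33 (SE) in log2 fold change, with a limma adjusted p of 3.08e-05. For C1qb they rose from 197 ± 120.5 to 1334 ± 228, or 2.92 ± 0.30 (SE) in log2 fold change, with a limma adjusted p of 3.98e-06. For C1qc they rose from 187.5 ± 102 to 1121 ± 185, or 2.71 ± 0.28 (SE) in log2 fold change, with a limma adjusted p of 4.61e-06. In bulk tissue, fewer or more cells of a type and less or more RNA per cell cannot be told apart.

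In Control iBAT the 3 chains had no fixed order, with C1qb above C1qc in 3 of 5 libraries. In AdCKO iBAT C1qb was above C1qc, and C1qc above C1qa, in 5 of 5 libraries. The ratio of C1qb to C1qc within a library was 1.04 ± 0.12 in Control and 1.19 ± 0.03 in AdCKO (SD, n = 5), without overlap (exact two-sided permutation test, p = 0.0079, adjusted over 8 ratios p = 0.021). The groups nearly touched, with the highest Control library at 1.14 and the lowest AdCKO library at 1.15. Control replicates 2 and 4 (0.96 and 0.86) lay furthest below. The ratio of C1qb to C1qa was 1.02 ± 0.21 in Control and 1.34 ± 0.09 in AdCKO, where Control replicate 1 lay within the AdCKO range and the adjusted p was 0.064 (exact permutation test). The ratio of C1qc to C1qa was 0.99 ± 0.20 in Control and 1.13 ± 0.06 in AdCKO, with overlap (exact permutation test, adjusted over 8 ratios p = 0.19). For 5 mice against 5 the smallest exact p is 0.0079.

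C3 is the central component that both convertases cut. It was at 1266, 1441, 1716, 1019.7 and 885 normalized reads per kb in Control and at 682, 610.2, 367, 675 and 363 in AdCKO. Every AdCKO library lay below every Control library. The mean fell from 1266 ± 331.5 to 539 ± 162 (SD, n = 5 each), or -1.25 ± 0.23 (SE) in log2 fold change, with a limma adjusted p of 0.00039. With the same total in every library, a scaling that moved the median of all tested genes up by 0.47, the log2 fold change of C3 was -0.77, or -1.24 relative to that shift, and its limma adjusted p was 0.0083 (range over alternatives 7.13e-05 to 0.0083). Under that scaling 60.6% of all tested genes were called higher and 9.77% lower (70.3% in all). The muscle-rich AdCKO replicates 1, 2 and 4 had the higher C3 values of their group, and replicates 3 and 5 alone gave -1.75. Those muscle-rich replicates were also the higher ones for C1qa, C1qb, C1qc, C4b, Cfb, C3ar1 and Serping1, but not for C5ar1. With AdCKO replicates 3 and 5 alone, Cfb rose by 1.38 (log2 fold change, limma adjusted p = 0.00805) and Serping1 by 1.58. The part of muscle in these values was not tested.

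Cfd, the adipocyte protease that cuts factor B, was the most abundant gene of the pathway list in Control and is given beside C3. It was at 5768, 5832, 12584, 3951 and 4024 in Control and at 3519, 5492, 1438, 4362 and 2796 in AdCKO. The groups overlapped, and Control replicate 3 was higher than any other library. The difference was -0.86 ± 0.37 (log2 fold change ± SE, limma adjusted p = 0.058), not called. It was -0.59 without Control replicate 3 (limma adjusted p = 0.14) and -1.54 with AdCKO replicates 3 and 5 alone (limma adjusted p = 0.0082, called, in a range over alternatives from 0.0082 to 0.80). The ratio of Cfd to C3 was 4.87 ± 1.41 in Control and 6.45 ± 2.01 in AdCKO, a difference within the spread between mice (exact permutation test, p = 0.17, adjusted over 8 ratios p = 0.19).

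C4b encodes C4, the thioester protein that the C1 proteases cleave. It was at 22.96, 23.8, 118, 13.6 and 16.1 normalized reads per kb in Control and at 288, 219, 116, 202 and 93.8 in AdCKO. Control replicate 3 lay above AdCKO replicates 3 and 5, so the groups overlapped in this gene alone among the 9. It changed by 2.60 ± 0.51 (log2 fold change ± SE, limma adjusted p = 0.00067, exact permutation test p = 0.024). It was 3.12 without Control replicate 3 and 1.90 with AdCKO replicates 3 and 5 alone, where it was no longer called (limma adjusted p = 0.026, in a range over alternatives from 1.7e-06 to 0.026). Its copy C4a was at 10.96 ± 7.6 (SD, n = 5) in Control and 35.4 ± 13.6 in AdCKO (log2 fold change 1.70, limma adjusted p = 0.00096), and was likewise not called with AdCKO replicates 3 and 5 alone (1.12, limma adjusted p = 0.036, in a range over alternatives from 1.2e-05 to 0.036). The ratio of C4b to C4a was 2.99 ± 1.11 in Control and 5.09 ± 0.34 in AdCKO (exact permutation test, p = 0.024, adjusted over 8 ratios p = 0.048). Control replicate 3 (4.85) lay within the AdCKO range. Reads shared by both copies leave this ratio uncertain.

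Cfb, the catalytic part of the alternative convertase, was at 26.1, 28.3, 71.9, 21.6 and 29.2 in Control and at 249, 159, 97.7, 166 and 73.7 in AdCKO. Control replicate 3 came close to AdCKO replicate 5, yet the groups did not overlap. It changed by 2.06 ± 0.35 (log2 fold change ± SE, limma adjusted p = 0.00024). The ratio of C3 to Cfb fell from 40.1 ± 12.2 in Control to 3.86 ± 0.78 in AdCKO, and that of C4b to C3 went from 0.027 ± 0.023 to 0.33 ± 0.06, neither with overlap (exact permutation test, p = 0.0079 each, adjusted over 8 ratios p = 0.021). C3 fell and Cfb rose, each without overlap, so the separation of their ratio was fixed by those changes and adds no evidence. The ratio of C4b to C3 likewise sets a gene called higher against one called lower.

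The receptors were the least abundant of the 9 genes in both groups. C3ar1, the receptor of C3a, was at 8.73, 10.8, 13.9, 7.72 and 9.22 normalized reads per kb in Control and at 107, 93.0, 89.7, 120.03 and 51.5 in AdCKO. C5ar1, the receptor of C5a, was at 8.90, 15.00, 19.6, 12.4 and 11.4 in Control and at 97.3, 108.5, 98.2, 130.2 and 66.2 in AdCKO. Every AdCKO library was over 3 times the highest Control library in both genes. On the log2 scale C3ar1 rose by 3.05 ± 0.21 (SE, limma adjusted p = 1.66e-07) and C5ar1 by 2.82 ± 0.20 (limma adjusted p = 2.24e-07). C3ar1 thus stood first among the 9, but C1qb stood above it with a pseudocount of 10 (2.85 against 2.31), with quantile normalization (3.19 against 2.84) and without Control replicate 3 (3.21 against 3.16). The ratio of C5ar1 to C3ar1 was 1.33 ± 0.22 in Control and 1.11 ± 0.14 in AdCKO, a difference within the spread between mice (exact permutation test, p = 0.10, adjusted over 8 ratios p = 0.14).

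Serping1, the inhibitor, was at 166, 231, 344, 136 and 169 in Control and at 954, 865, 605, 1059 and 586 in AdCKO. No AdCKO library came near the Control range. The mean rose from 209 ± 82.8 to 814 ± 211 (SD, n = 5 each), or 1.99 ± 0.24 (SE) in log2 fold change, with a limma adjusted p of 1.51e-05.

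The order of the levels changed between the groups. In Control iBAT C3 stood first, above Serping1 in 5 of 5 libraries, while Serping1 and the 3 C1q chains were not ordered beyond their spread. C4b and Cfb came next without a fixed order (C4b was higher in 1 of 5 libraries), followed by C5ar1 and C3ar1. In AdCKO iBAT the C1q chains came first, then Serping1, which was below C1qa in 4 of 5 libraries, then C3 below Serping1 in 5 of 5. Summed over the 9 genes, the level went from 2156 ± 790 in Control to 5328 ± 1111 normalized reads per kb in AdCKO (SD, n = 5). C3 made up 60.3% ± 7.89 of that sum in Control and 9.96% ± 1.11 in AdCKO, and the C1q chains 25.8% ± 6.46 and 65.3% ± 3.22.

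**Figure D2:**
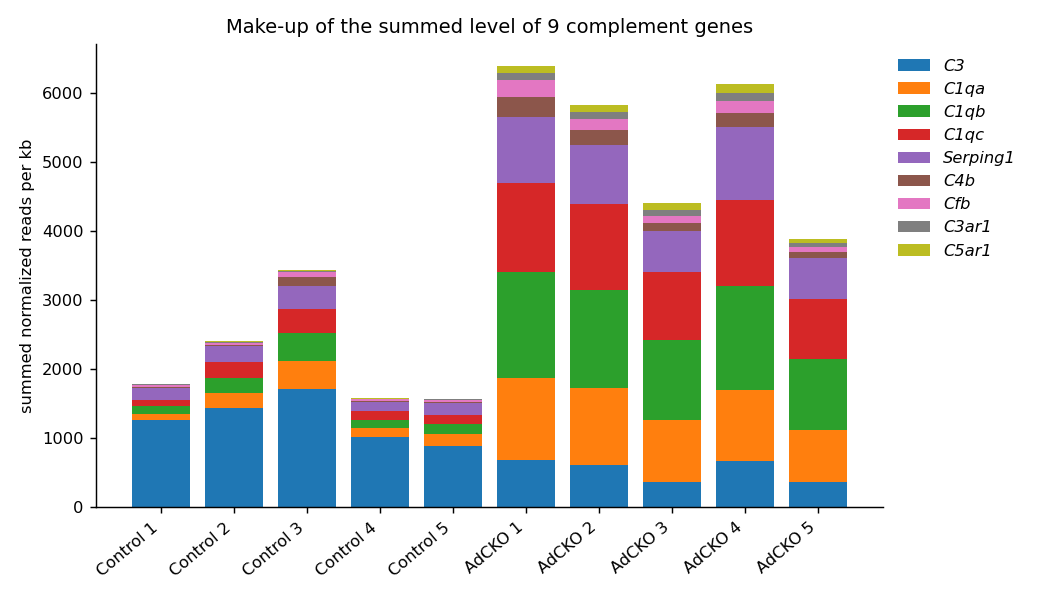
Stacked normalized reads per kb of the 9 complement genes in each of the 10 libraries (linear axis from 0). C3 is the largest part of every Control bar (50.01% to 70.7%), and the 3 C1q chains together are the largest part of every AdCKO bar (61.6% to 68.8%).

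The wider pathway was followed with 56 listed complement genes, of which 47 were in the table and 34 were tested. Of these 34, 24 were called higher, 7 lower and 3 were not called, with a median log2 fold change of 1.44. Of the tested genes, 3 (Fcna, Itgam and Itgax) passed the filter through AdCKO alone. Without them, 21 of 31 were higher and 7 lower, against 22.5% and 29.5% (52% in all) of the genes that reached a mean of 10 in both groups. Leaving out the 9 genes above, 16 of the other 25 were higher and 6 lower, against 25.6% and 28% of all tested genes (53.6% in all). The 16 still include Fcna, Itgam and Itgax.

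Among the genes that start the classical or lectin pathway, 7 of 8 tested were higher, and 6 of the 7 that passed the filter in both groups. Of all genes that passed in both groups, 22.5% were higher and 29.5% lower, the shares to set beside each role. C1s1, a C1s protease, had means of 134 ± 31.2 in Control and 366 ± 51.4 in AdCKO (SD, n = 5) and rose by 1.45 in log2 fold change (limma adjusted p = 2.76e-06). C1ra (1.67) and C1rb (1.63), which are similar copies of C1r, rose with it. C1rl, a relative of C1r, went the other way, from 124 ± 5.43 to 35.6 ± 6.73 (log2 fold change -1.79, limma adjusted p = 1.26e-07). Of the lectin pathway, Masp1, Masp2 and Colec11 were below the filter in both groups, and Fcna, ficolin A, passed it through AdCKO alone and was called higher (log2 fold change 0.80, limma adjusted p = 0.005).

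Convertase components were higher in 5 of 7. Cfp, properdin, which stabilizes the alternative convertase, rose from 46.1 ± 20.1 to 251.9 ± 49.3 (log2 fold change 2.49, limma adjusted p = 2.07e-06). C2, the partner of C4, rose from 17.2 ± 9.49 to 56.4 ± 15.9 (log2 fold change 1.74, limma adjusted p = 0.00019). C3 was the 1 gene of this group that was lower. Of the terminal pathway only C7 and C8g were tested, and they went in opposite directions, with log2 fold changes of 1.09 (limma adjusted p = 0.0007) and -1.09 (limma adjusted p = 2.59e-07). The gene of C5, Hc, was at 0.33 in Control and 0.40 in AdCKO, far below the filter.

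Regulators divided evenly, with 4 of 9 higher, 4 lower and 1 (Vtn) not called. Next to Serping1, the higher ones included Clu, clusterin, from 61.2 ± 16.3 to 159 ± 34.2 (log2 fold change 1.37, limma adjusted p = 3.21e-05). The membrane-bound Cd55, which speeds the decay of convertases, rose as well (1.43). Of the 4 that fell, Cpn2 is soluble and the other three are membrane-bound. Cd59a and Cd59b, the paired mouse genes of the inhibitor of the membrane attack complex, fell by 1.06 and 1.34 on the log2 scale (limma adjusted p = 3.43e-07 and 1.7e-06). Cr1l fell by 0.38, less than the 0.47 by which scaling to one total moved the median of all tested genes. Cpn2, a subunit of the carboxypeptidase that inactivates C3a and C5a, fell from 162 ± 19.5 to 29.7 ± 3.87 normalized reads per kb (log2 fold change -2.41, limma adjusted p = 7.04e-09), and no library of one group came near the other.

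Receptors were higher in 7 of 8, with C1qbp not called, and in 5 of the 6 that passed the filter in both groups. Itgam and Itgax, the alpha chains of complement receptors on myeloid cells, passed the filter through AdCKO alone. Their log2 fold changes were 2.99 and 2.57 (limma adjusted p = 9.43e-08 and 1.61e-07). Their shared beta chain Itgb2, which passed in both groups, had one of 3.68 (limma adjusted p = 2.92e-07), the largest of the pathway list. Vsig4 (0.65 in Control, 0.71 in AdCKO), a receptor of some resident macrophages, and Cr2 (0.43 and 0.49), the receptor of B cells, were far below the filter in both groups.

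**Figure D3:**
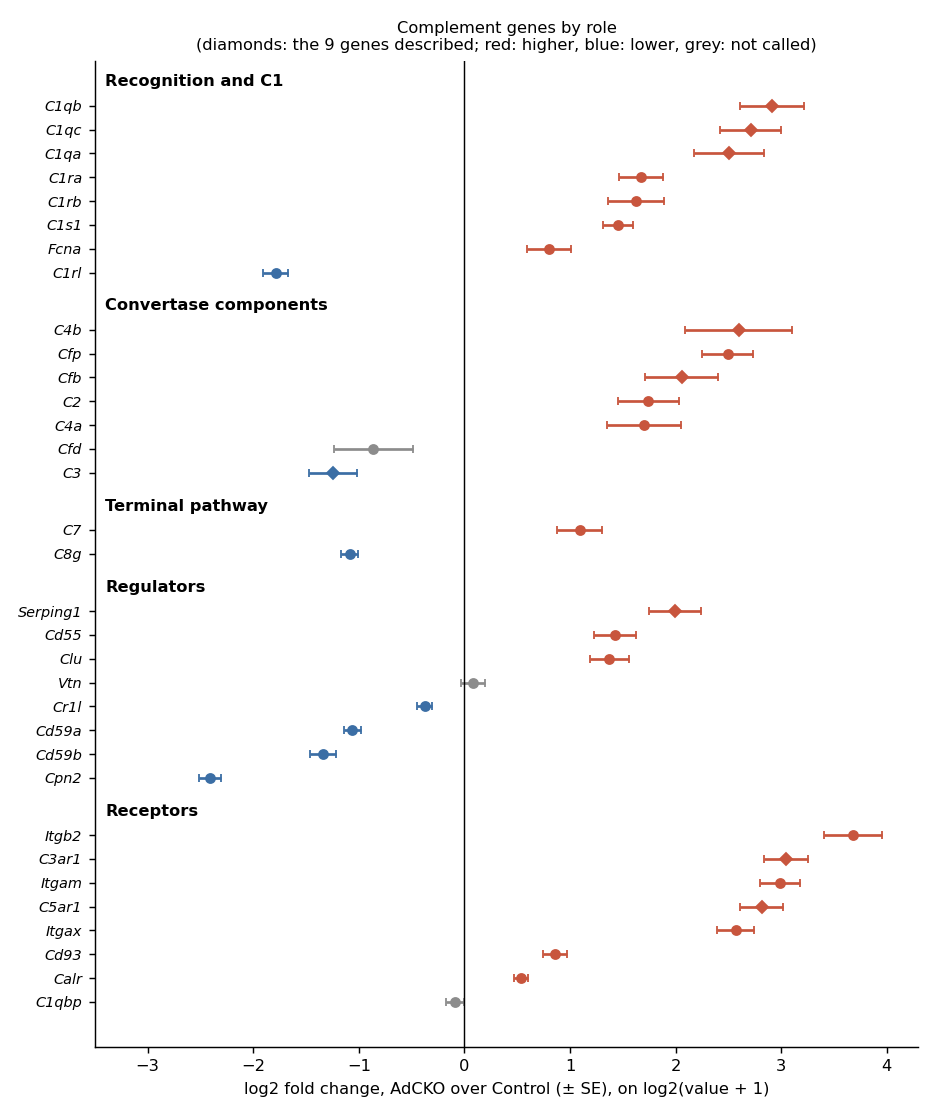
Log2 fold change (AdCKO over Control, on log2(value + 1)) with its SE for 33 of the 34 tested complement genes, by role. Diamonds are the 9 genes described above, red is called higher, blue lower and grey not called. Recognition genes, convertase components and receptors lie mostly to the right of 0, while 4 of the 8 plotted regulators lie to the left as called genes.

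Markers of macrophages moved with the 8 genes that rose. Of 10 listed macrophage markers, 9 were called higher and 1 (Cd163, 10.9 ± 4.57 in Control and 8.98 ± 3.62 in AdCKO) was not called, and 8 of the 8 that passed the filter in both groups were higher. Beside each marker list stand the shares called higher, 25.6% of all tested genes and 22.5% of those that passed in both groups. Their summed level was 465 to 1264 in Control and 5826 to 7868 in AdCKO, most of it Lyz2. Cd68 had a log2 fold change of 4.10, Emr1 one of 2.66 and Csf1r one of 1.94. Aif1 (1.03), Mertk (0.65) and Cd14 (0.36) rose less, and Cd163 was at -0.25. The rises of the complement genes fell inside this range, but the range is wide, so that says little. All 5 pan-leukocyte markers (Ptprc, Cd53, Laptm5, Tyrobp and Fcer1g) were higher, with a median of 3.12 and sums of 165 to 471.5 in Control and 1672 to 2612 in AdCKO. Of 10 genes of lipid-associated macrophages 8 were called higher, but Gpnmb, Spp1, Itgax and Mmp12 passed the filter through AdCKO alone, and of the 6 that passed in both groups 4 were higher. The neutrophil genes S100a8 (mean 4.13 in Control, 4.63 in AdCKO) and Csf3r (3.68, 9.91) were below the filter, Csf3r only just in AdCKO. The hepatocyte genes Alb (0.65 and 0.66) and Serpina1a (3.1 and 4.9) were below it too. Control and AdCKO libraries did not overlap for Csf3r and Serpina1a (exact permutation test, p = 0.0079 each), but did for S100a8 and Alb. Fibroblasts also express C3, C4b, C1s1 and Serping1, and 6 of 7 fibroblast markers were higher, with Col1a1 at 3.36. Of 6 adipocyte markers 4 were lower and 0 higher, against 28% and 25.6% of all tested genes. Plin1 was at -0.62 and Adipoq, whose promoter drives Cre, at -0.52. These falls are close in size to the 0.47 by which scaling to one total moved the median of all tested genes. Their values under that scaling are not given here. Of 5 brown adipocyte genes, Ucp1 and Cidea were called lower and Ppargc1a higher. The part of these cell types in the complement values was not tested.

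**Figure D4:**
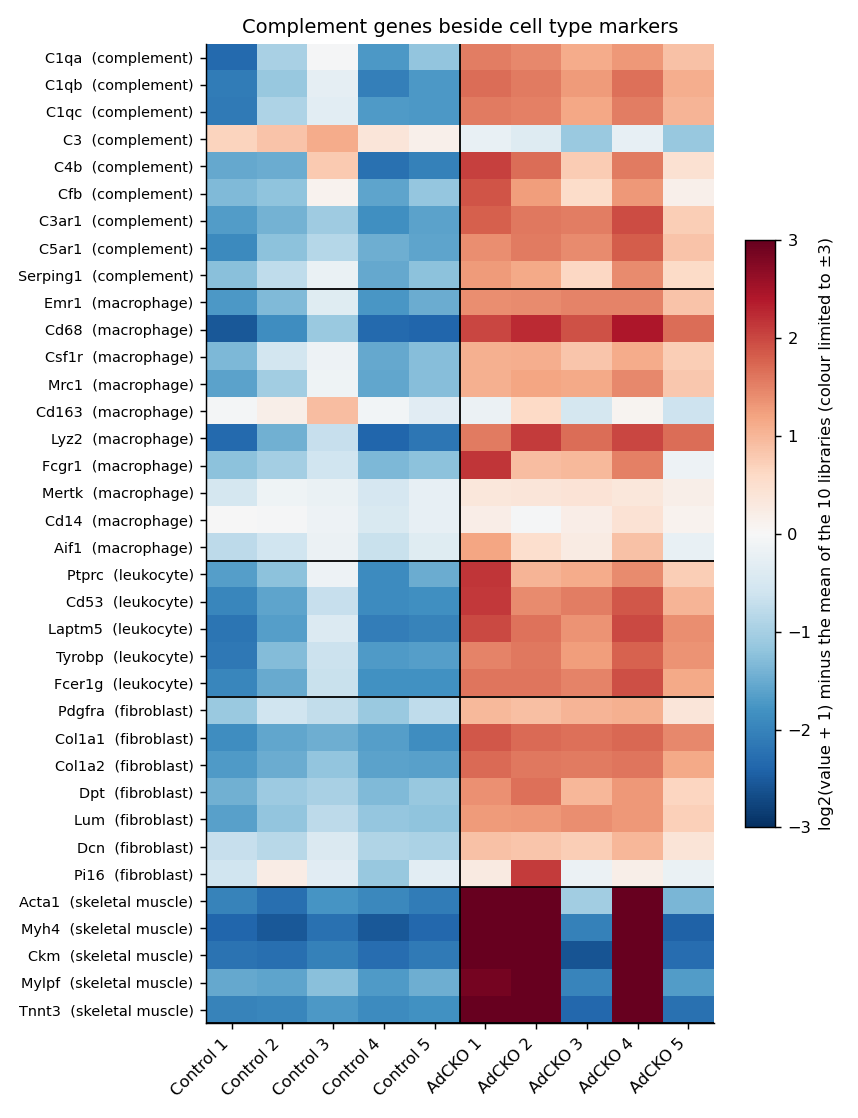
Log2(value + 1) of each gene minus its mean over the 10 libraries, for the 9 complement genes and the macrophage, leukocyte, fibroblast and skeletal muscle markers (rows) in each library (columns). Colours are limited to ±3. The complement genes other than C3 and the leukocyte markers are blue in Control and red in AdCKO, except C4b (0.78) and Cfb (0.11), which lie above their means in Control replicate 3, while the muscle genes are red in AdCKO replicates 1, 2 and 4.

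Each complement gene was next set against the macrophage markers of its own library, by subtracting the mean log2 level of the 10 markers, which rose by 1.85 (exact permutation test, p = 0.0079). On that scale C3 dropped by 3.10 (SE 0.26, limma adjusted p = 1.94e-30), and 5 of the 9 remained higher. These were C3ar1 (1.20, limma adjusted p = 1.81e-06), C1qb (1.06), C5ar1 (0.96), C1qc (0.86) and C4b (0.74). In this fit the SE of the 9 genes lay between 0.248 and 0.264. Their own SD ran from 0.070 (C1qb in AdCKO) to 0.835 (C4b in Control). The limma p-values of all 9 thus rest on a spread pooled over genes. An exact permutation test gave p = 0.0079 for C3, C3ar1, C1qb, C5ar1 and C1qc, the smallest possible. For C4b the exact permutation test gave p = 0.13, for C1qa p = 0.016, for Serping1 p = 0.20 and for Cfb p = 0.44. C1qa (0.65), Cfb (0.21) and Serping1 (0.14) were not called. Of all tested genes 1.5% were called higher and 91.3% lower (92.8% in all) on this scale.

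For the genes other than C3 and C3ar1, the sign of these differences depended on the markers. Set against the 5 leukocyte markers, 0 of the 9 genes were called higher and 3 lower, namely C3, Cfb (-0.98, limma adjusted p = 0.0028) and Serping1 (-1.04, limma adjusted p = 0.0024). On that scale 0.169% of all tested genes were called higher and 97.6% lower (97.8% in all), so a lower call was the usual one. At an unadjusted p under 0.05, 0 were higher against either that list or the one that follows. Set against Emr1, Cd68, Csf1r, Mrc1 and Lyz2 alone, a choice made after seeing the data, the same 3 genes were called lower and 0 were higher, against 97.3% and 0.222% of all tested genes (97.5% in all). C3ar1 stood between 0.01 and 0.14 against these lists, and C1qb between -0.12 and 0.005. Among the 9 genes C3 alone was called in the same direction against all 3 marker lists. C3 was already lower before the rising markers were subtracted. On these 3 scales 91.3%, 97.6% and 97.3% of all tested genes were called lower, so this does not set C3 apart from most genes.

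**Figure D5:**
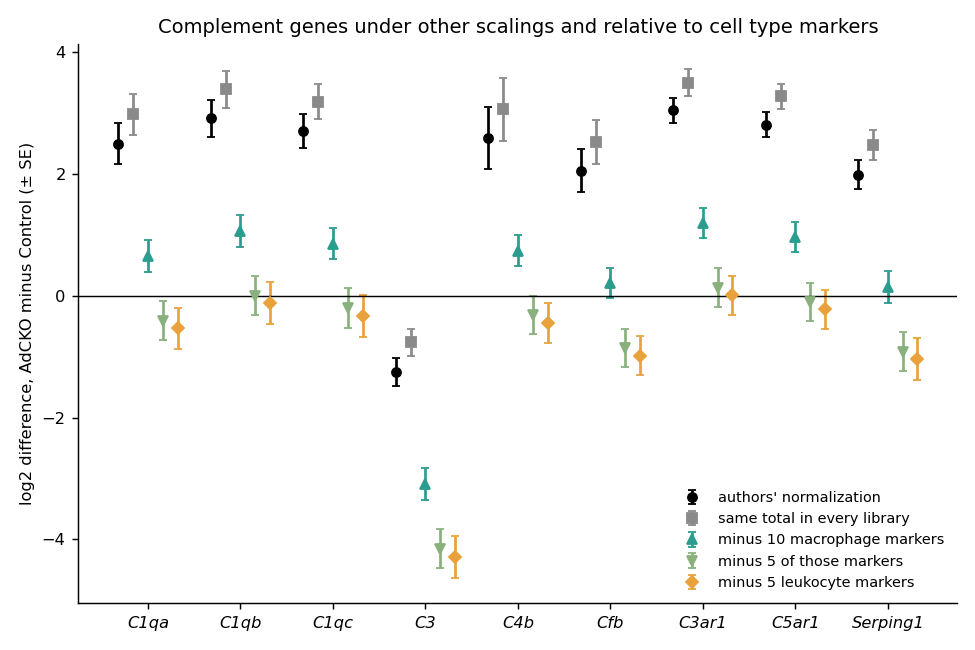
Log2 difference (AdCKO minus Control, with SE) of the 9 complement genes under the authors' normalization, after scaling each library to one total, and after subtracting the mean of 10 macrophage markers, of 5 of these or of 5 leukocyte markers. C3 lies below 0 in all 5 fits. Once markers are subtracted, C3ar1 lies from 0.01 to 1.20, and the remaining genes lie on both sides of 0.

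The profile over the 10 libraries was compared with that of every tested gene as the root mean square difference of log2(value + 1), after centring each gene on its mean. C1qb and C1qc were closest to each other (0.15 on the log2 scale), and C3ar1 and C5ar1 formed a second pair (0.22). Outside the 9, the genes nearest to C1qc were Fcgr3 (0.20), Cfp (0.21) and Nckap1l (0.21), and those nearest to C1qb were Tyrobp (0.21), Fcer1g (0.23) and Emr1 (0.24). Those of C1qa were Cfp (0.27), Ctsh (0.28) and Selplg (0.28). Itgam (0.14), Cybb (0.18) and Col1a2 (0.19) were nearest to C3ar1, and Alox5ap (0.15), Hk3 (0.16) and Myo1f (0.16) to C5ar1.

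For Serping1 the nearest were Igsf6 (0.16), Csf1r (0.17) and Ctsc (0.17). Cfb had C4a (0.21), Ccl8 (0.22) and Epsti1 (0.23), and C4b had Rac2 (0.38), Ubd (0.38) and Ccl8 (0.43), the loosest match of the 9. C3 stood with genes that fell, Gstz1 (0.15), Ces1f (0.21) and Myh14 (0.21), and was 1.63 from the nearest of the other complement genes. These distances describe likeness over 10 libraries that fall into 2 groups, so any gene with a similar fold change scores close.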

How the data were processed

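Polyadenylated RNA from iBAT was sequenced by the authors, mapped to mm9 with STAR, counted on exons with iRNA-seq and normalized with DESeq2 (versions not given in the sources used here). The deposited values are a signal (DESeq2-normalized exon reads divided by exon length in kb) rather than counts. None of them is 0 (smallest 0.0532), and the step behind this is not stated. The deposited fold changes, adjusted p-values and lists of called genes were not used.

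Values were taken as deposited, with a pseudocount of 1, and tested with limma 3.58.1 in R 4.3.3 (lmFit, eBayes with trend, two-sided, Benjamini-Hochberg over all 11244 tested genes, threshold 0.01), after a check on simulated data. Single values and ratios used exact permutation over 252 splits. Gene models came from GENCODE M1 (NCBIM37) and promoters from RefSeq (GRCm38.p6). Figures used matplotlib 3.10.9. The values of 1 regulator, counted in the totals, are not reported here. The 9 genes, the lists and the tests were chosen with earlier results of these data known. Named genes are the 9, at most 3 called genes per role and direction with the smallest p, Cfd, C4a, Cpn2, at most 3 markers per list and the 3 nearest profiles. C1ra, C1rb, Fcna, Cd55, Cr1l, Itgb2, uncalled or untested genes, further markers and the motif AGGAAGT were chosen after their values or letters were seen. Alternatives were other pseudocounts (0.1 and 10), filters, scalings, limma settings, a replicate block, left-out libraries and marker lists. The deviations of same-numbered libraries from their group means correlated between -0.27 and 0.10, which shows no sign of pairing by number. The labels do not say whether mice were paired, and low correlations cannot exclude it.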

Additional observations from a re-analysis of the deposited data

Results flagged for a closer look

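Control replicate 3 stood apart from the other Control libraries in 4 genes, by Dixon's criterion for groups of 5. C4b was at 118 there and at most 23.8 in the other 4, Cfb at 71.9 against at most 29.2, C4a at 24.3 against at most 8.88, and Cfd at 12584 against at most 5832. Chance flags about 1 in 20 groups, and 24 groups (12 genes in Control and AdCKO) were examined. The summed leukocyte markers were 471.5 in that library and at most 246 in the other Control libraries, and their part in these values was not tested. Without it, the log2 fold changes were 3.12 for C4b, 2.34 for Cfb, 2.02 for C4a and -0.59 for Cfd.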

How the results depend on the processing

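For the 9 complement genes, 197 of 198 log2 fold changes under the alternatives kept their direction and their side of the threshold. The exception was C4b with AdCKO replicates 3 and 5 alone (1.90, limma adjusted p = 0.026). With the replicate number as a block, 8 genes were higher and 1 lower, and no other call changed. With each library left out in turn, 8 were higher and 1 lower, and 23 to 24 genes of the pathway list were higher. Rescaling every library to one total gave 26 higher and 6 lower in that list, against 60.6% and 9.77% of all tested genes. Relative to macrophage markers, 167 of 198 values kept direction and call. The count of genes higher, 5, was 4 to 6 when single libraries were left out, with C4b not called without Control replicates 2, 4 or 5 or AdCKO replicates 1 or 2, C1qc not called without Control replicate 1 (0.74, limma adjusted p = 0.010), and C1qa called without Control replicate 3 (0.79, limma adjusted p = 0.00044). It was 2 with AdCKO replicates 3 and 5 alone, where Cfb (-0.22) and Serping1 (-0.010) changed sign. Against the leukocyte list it was 0, with 3 lower, and sign changed for C1qa (-0.53), C1qb (-0.12), C1qc (-0.33), C4b (-0.44), Cfb (-0.98), C5ar1 (-0.22) and Serping1 (-1.04). Against 5 macrophage markers it was 0, with 3 lower, and sign changed for C1qa (-0.41), C1qc (-0.20), C4b (-0.315), Cfb (-0.85), C5ar1 (-0.095) and Serping1 (-0.92). Of 96 values of the ratios 3 crossed a p of 0.05 and none changed sign. These are C1qc to C1qa (0.29) and C5ar1 to C3ar1 (-0.35) without Control replicate 1, and Cfd to C3 (0.86) with quantile normalization. Depth before normalization is unknown, so counting error is not given.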
